A study of Homo sapiens with 2 samples.

Results

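The genes described here are 10 factors that act in or mark the specification of human primordial germ cells: TFAP2C, TFAP2A, PRDM1, PRDM14, KLF4, TFCP2L1, DPPA3, NANOS3, DND1 and TCL1A. They were taken by name, and each symbol matched 1 of the 62700 Ensembl genes of the gene table and its transcripts in the transcript table. The libraries are 2 replicates of 1 group, polyadenylated RNA of TCam-2 cells transduced with a FLAG-tagged DDX53 construct, and TCam-2 is an established human line from a seminoma, a testicular germ cell tumour. Cells transduced with GFP-FLAG and untransduced cells are the study's controls and were not analysed here, so no effect of DDX53 was computed. The labels name no promoter for the construct and do not say whether the cells are a clone or a pool. They also do not say whether the replicates come from separate cultures, so that a difference between the libraries may be technical.

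Primordial germ cells are the embryonic precursors of eggs and sperm. In human embryos BMP and WNT signals switch on SOX17 and TFAP2C, which with PRDM1 set up the germ cell programme and hold back somatic genes, while genes shared with naive pluripotent cells, such as KLF4 and TFCP2L1, are on. RNA-binding proteins such as NANOS3 and DND1 then protect the new germ cells by controlling which messages are translated or degraded. Seminoma cells resemble these early germ cells.

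Reads assigned to genes numbered 24137664 and 22198929 in replicates 1 and 2, and 3 reads, the limit for a gene without a read, are 0.124 and 0.135 CPM (reads of a gene scaled to the total of the library). DDX53, the gene of the construct, had 146 and 147 reads, or 6.05 and 6.62 CPM. Of 9 markers of seminoma and primordial germ cells, TFAP2C among them, 9 had at least 1 CPM in both libraries. Their sum was 5952 CPM in replicate 1 and 5993 CPM in replicate 2, of which POU5F1 gave 1891 and 1921 and TFAP2C 1255 and 1247. For 5 markers of embryonal carcinoma, another germ cell tumour, 3 reached 1 CPM (TDGF1, DNMT3B and GDF3), with a summed 259.9 and 225.8 CPM over the list. SOX2 had 24 reads in each library, or 0.994 and 1.08 CPM, and LEFTY1 had 3 and 2 reads. For 9 markers of testis somatic cells, 3 did (GATA4, SOX9 and AMH), with a summed 56.3 and 50.9 CPM, while the Leydig cell genes CYP17A1, INSL3 and STAR had 0 to 4 reads in each library. The sums cover lists of different size, take no account of length and do not rank the lists. Neither the sums nor the counts of markers detected tell the tumour types apart. Without molecular identifiers reads are not independent molecules, so that intervals and limits describe counting error alone.

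PRDM1 has a pair of alternative starts, and its promoters are shown because the transcripts of these starts took different shares of PRDM1 in the libraries. The promoters of TFCP2L1 and DPPA3 are shown because they differ in base composition and each lies before the start of the single transcript with TPM of its gene. The sequences are RefSeq's on GRCh38.p14, on the strand of the gene, from 250 bases before the RefSeq start up to the first annotated transcript start. Capitals mark any of these motifs on either strand: the GC box GGGCGG, the AP-2 motif GCCNNNGGC, the TATA element TATAAA and the CCAAT box.
PRDM1 upstream start, chr6:106086086-106086319, plus strand: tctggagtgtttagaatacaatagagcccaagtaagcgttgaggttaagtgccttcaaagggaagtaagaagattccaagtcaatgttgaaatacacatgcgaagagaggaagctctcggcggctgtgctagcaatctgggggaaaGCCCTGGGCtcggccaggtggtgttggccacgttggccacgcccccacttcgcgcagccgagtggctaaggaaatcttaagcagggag
PRDM1 internal start, chr6:106098691-106098924, plus strand: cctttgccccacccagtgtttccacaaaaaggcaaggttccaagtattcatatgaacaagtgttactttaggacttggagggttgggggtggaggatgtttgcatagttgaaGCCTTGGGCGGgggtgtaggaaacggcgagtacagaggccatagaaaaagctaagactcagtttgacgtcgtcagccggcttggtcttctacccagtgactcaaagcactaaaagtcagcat
TFCP2L1, chr2:121285208-121285452, minus strand: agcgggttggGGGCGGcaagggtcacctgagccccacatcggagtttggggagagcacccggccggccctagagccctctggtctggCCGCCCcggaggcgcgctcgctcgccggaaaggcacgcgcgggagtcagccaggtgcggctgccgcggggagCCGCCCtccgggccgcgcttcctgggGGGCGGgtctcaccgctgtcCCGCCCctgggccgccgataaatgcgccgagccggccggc
DPPA3, chr12:7711183-7711432, plus strand: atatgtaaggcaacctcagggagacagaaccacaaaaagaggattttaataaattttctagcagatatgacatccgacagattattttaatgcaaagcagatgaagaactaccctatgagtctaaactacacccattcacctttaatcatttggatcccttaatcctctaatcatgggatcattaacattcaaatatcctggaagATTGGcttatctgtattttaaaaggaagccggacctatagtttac
Each PRDM1 promoter holds 1 AP-2 motif, and in the internal one it overlaps 1 GC box. The TFCP2L1 sequence holds 5 GC boxes at 76.7% G and C, and the DPPA3 sequence holds 1 CCAAT box, written as its reverse complement ATTGG, at 35.6% G and C. Among all 35116 RefSeq windows of 250 bases before to 50 bases after a start, 94.1% had a lower share of G and C than the whole window of TFCP2L1 and 8.65% a lower share than that of DPPA3. The table holds 12 such windows for 8 members. The GC box is in 7 of these 12, against 45.0% of all windows, and the AP-2 motif in 5 (PRDM1, KLF4 and NANOS3), against 23.2%. The CCAAT box is in 4 (DPPA3, DND1 and NANOS3), against 34.6%, and the TATA element in 3 (TFAP2A, DND1 and TCL1A), against 11.5%. These counts take in windows with little or no TPM. No NANOS3 window held the start of a transcript with TPM, and the KLF4 window held 0% and 5.62% of the TPM of KLF4 in replicates 1 and 2. Yet the leading transcripts of both genes start just downstream of such a window. The most downstream NANOS3 window ends at 13877183, and NANOS3-201 starts at 13877247. On the minus strand the KLF4 window ends at 107489720, and KLF4-201 starts at 107489646. A window with little TPM may therefore lie close to a start in use. The counts also take in the 50 bases after a start. In DND1 and TCL1A the TATA element does not lie wholly before the first annotated transcript start. Nor does the CCAAT box in the most upstream NANOS3 window. A match describes the letters and is not evidence of binding.

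All 10 members were detected, that is, had at least 1 CPM in both libraries, which 21.7% of all genes and 61.8% of protein-coding genes did. Levels of different genes were ordered by TPM, the length-corrected abundance, summed over the transcripts of a gene, because CPM take no account of length. TFAP2C stood first with 618.9 ± 2.41 TPM (SD, n = 2) and took 75.5% of the members' summed TPM in replicate 1 and 75.9% in replicate 2. KLF4 followed at 80.2 ± 2.31 TPM and PRDM14 at 38.1 ± 1.70 TPM (SD, n = 2 each). PRDM1, TFCP2L1 and TCL1A lay together, between 15.4 and 18.8 TPM. TFAP2A, NANOS3, DND1 and DPPA3 closed the order, and DPPA3 was lowest at 2.75 ± 0.631 TPM (SD, n = 2). Of the 9 pairs of neighbours in this order, 7 were apart in each pairing of the libraries, and PRDM1 with TFCP2L1 and TFCP2L1 with TCL1A overlapped. Among the 7, TFAP2A with NANOS3 (lowest 11.6 against highest 11.2 TPM) and DND1 with DPPA3 (3.28 against 3.19) were only just apart. TPM have no counting interval here, so the order within these pairs is uncertain. In bulk RNA, expression in fewer cells and less RNA per cell cannot be told apart.

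**Figure D1:**
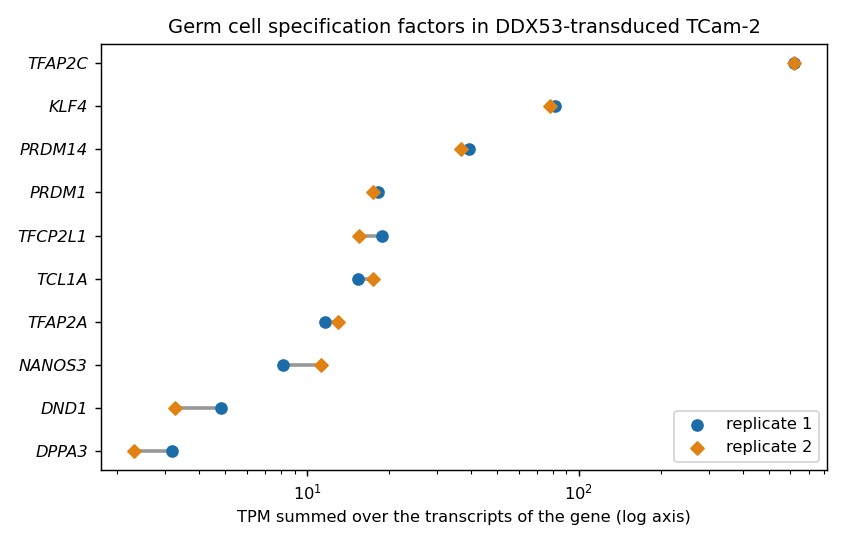
Summed TPM of each member (x axis, log scale) in replicate 1 (circles) and replicate 2 (diamonds), joined by a line, with genes in order of their mean. TFAP2C lies near 618.9 TPM, 7.72 times the level of KLF4. PRDM1, TFCP2L1 and TCL1A lie together between 15.4 and 18.8 TPM, where TFCP2L1 overlaps with each of the others.

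TFAP2C (ENSG00000087510.7, chromosome 20 from 56629302 to 56639283, plus strand) encodes AP-2 gamma, a DNA-binding factor that opens germ cell enhancers. Its 30304 reads in replicate 1 were 1255 CPM (1241 to 1270, 95% Wilson interval), and its 27672 reads in replicate 2 were 1247 CPM (1232 to 1261). These intervals overlapped, and of the 12984 genes that reached 1 TPM in each library 98.2% had a lower mean TPM. TFAP2C-201 made up 98.2% of its TPM in each library. Its paralog TFAP2A (ENSG00000137203.15, chromosome 6 from 10393186 to 10419659, minus strand), AP-2 alpha, marks early germ cell progenitors and also acts in neural crest and surface ectoderm. It had 587 and 624 reads, or 24.3 and 28.1 CPM, and 11.6 and 13.0 TPM (12.3 ± 0.952, SD, n = 2). TFAP2C exceeded it 53.4-fold in replicate 1 and 47.6-fold in replicate 2 on the TPM scale.

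Other AP-2 genes were near or at 0. TFAP2E had 12 and 14 reads (0.435 ± 0.00820 TPM, SD, n = 2), TFAP2B had 4 and 11 reads, and TFAP2D had no read in either library. None of these 3 reached 1 CPM, and TFAP2A exceeded TFAP2E by 28.3 ± 2.72-fold in TPM (SD, n = 2). Antisense to TFAP2A, exons of TFAP2A-AS2 cover 11.4% and those of TFAP2A-AS1 5.29% of its exonic bases. TFAP2A-AS2 had 34 and 33 reads and TFAP2A-AS1 had 7 and 18, few beside those of TFAP2A.

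PRDM1 and PRDM14 are zinc finger proteins with a PR domain. PRDM1, or BLIMP1, represses somatic genes in germ cell precursors, and PRDM14 supports pluripotency genes and the resetting of DNA methylation. PRDM14 (ENSG00000147596.4, chromosome 8 from 70051651 to 70071693, minus strand) had 1904 and 1593 reads, or 78.9 and 71.8 CPM. PRDM1 (ENSG00000057657.17, chromosome 6 from 106086320 to 106109939, plus strand) had 2313 and 1868 reads, or 95.8 and 84.1 CPM. Per length their order turned, with PRDM14 at 39.3 and 36.9 TPM and PRDM1 at 18.3 and 17.4 TPM, 2.13 ± 0.0247-fold apart (SD, n = 2). These were the highest of 16 PRDM genes by TPM. PRDM4 and PRDM2 came next at 8.28 ± 0.107 and 8.14 ± 0.468 TPM (SD, n = 2 each), and PRDM1 exceeded PRDM4 by 2.16 ± 0.0434-fold (SD, n = 2). Of the 14 other PRDM genes 7 were detected, and PRDM7 and PRDM8 had no read in either library. PRDM9, which marks recombination sites in meiosis, had 1 read in replicate 1 and none in replicate 2.

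A corepressor that PRDM14 is known to bind was also present. CBFA2T2 had 3207 and 2649 reads, or 132.9 and 119.3 CPM, and was lower in replicate 2 (log2 difference -0.15, adjusted p of 0.0018, edgeR exact binomial test). Its relatives CBFA2T3 and RUNX1T1 had 63 and 54 reads and 2 and 4 reads. PRMT5, an arginine methyltransferase that PRDM1 recruits in germ cells, had 3348 and 3261 reads, or 138.7 and 146.9 CPM.

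KLF4 and TFCP2L1 belong to the naive pluripotency network. KLF4 (ENSG00000136826.15, chromosome 9 from 107484852 to 107490482, minus strand) is a zinc finger activator that can also bind closed chromatin. It had 3509 reads in replicate 1, or 145.4 CPM, and 3050 reads in replicate 2, or 137.4 CPM. At 81.8 and 78.5 TPM it was the highest of 17 KLF genes, 2.22 ± 0.252-fold above KLF5 (SD, n = 2), the next. This sum takes in transcripts annotated as retained introns. Protein-coding transcripts of KLF4 alone held 42.3 and 45.6 TPM, a smaller lead over the 34.1 and 38.4 TPM of KLF5. Of the other 16 KLF genes 13 were detected, among them KLF16 and KLF6 at 31.4 ± 0.0463 and 24.1 ± 0.854 TPM (SD, n = 2 each). KLF17, a factor of the human naive state, had 0 and 2 reads.

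TFCP2L1 (ENSG00000115112.8, chromosome 2 from 121216587 to 121285207, minus strand) is a CP2-type factor of naive cells and of kidney ducts. It had 3437 and 2602 reads, or 142.4 and 117.2 CPM. On the TPM scale it was at 18.8 and 15.5, which overlapped with its paralog TFCP2 at 15.3 and 16.6 and with GRHL2, an epithelial grainyhead factor, at 16.6 and 17.5. UBP1 was the highest of these 6 genes at 35.7 ± 1.51 TPM (SD, n = 2), and all 5 relatives of TFCP2L1 were detected, down to GRHL3 at 2.61 ± 0.428 TPM (SD, n = 2). Other naive genes were uneven. DNMT3L, a cofactor of DNA methylation, had 1768 and 1132 reads and was lower in replicate 2 (log2 difference -0.51, adjusted p of 6.5e-19, edgeR exact binomial test). ESRRB had 41 and 36, and DPPA5 had none. Of the 8 naive genes listed, 5 were detected.

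The maternal and germ cell protein DPPA3, or STELLA, limits maintenance of DNA methylation through UHRF1. DPPA3 (ENSG00000187569.3, chromosome 12 from 7711454 to 7717559, plus strand) had only 49 reads in replicate 1, at 2.03 CPM (1.54 to 2.68, 95% Wilson interval), and 32 in replicate 2, at 1.44 CPM (1.02 to 2.03). These intervals overlapped, and at such a depth the libraries could not be told apart. DPPA4, a chromatin factor of pluripotent cells, was 53.3 and 75.5 times higher in TPM, at 172.0 ± 2.39 TPM (SD, n = 2), and DPPA2 was at 6.92 ± 0.460 TPM (SD, n = 2). All 11 genes of the table named as processed copies of DPPA3 had no read in either library. UHRF1 itself had 912 and 965 reads, or 37.8 and 43.5 CPM, and was higher in replicate 2 (log2 difference 0.21, adjusted p of 0.018, edgeR exact binomial test).

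NANOS3 and DND1 are RNA-binding proteins that keep early germ cells alive. NANOS3 (ENSG00000187556.8, chromosome 19 from 13862063 to 13880757, plus strand) had 120 reads in replicate 1, or 4.97 CPM, and 135 reads in replicate 2, or 6.08 CPM. On the TPM scale it was at 8.15 and 11.2, below NANOS1 at 13.5 and 13.2, and NANOS2, which acts in male germ cells after specification, had no read. NANOS3 had 1.57 and 1.46 times the reads that its TPM predict, and NANOS1 had fewer in replicate 1 (log2 ratio -0.13). The order of NANOS3 and NANOS1 is therefore uncertain. PUM2, an RNA-binding partner of NANOS proteins, was at 29.5 ± 2.64 TPM (SD, n = 2) and was lower in replicate 2 (log2 difference -0.10, adjusted p of 0.028, edgeR exact binomial test). All 11 genes of the CCR4-NOT deadenylase complex, which both proteins are known to recruit, were detected, from CNOT6L at 6.10 ± 0.307 TPM to CNOT7 at 137.1 ± 9.34 TPM (SD, n = 2 each). CNOT3 was lower in replicate 2 (log2 difference -0.24, adjusted p of 1.5e-10) and CNOT11 was higher (0.15, adjusted p of 0.0011, edgeR exact binomial test for both).

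DND1 (ENSG00000256453.2, chromosome 5 from 140670794 to 140673586, minus strand) had 87 reads in replicate 1, at 3.60 CPM (2.92 to 4.45, 95% Wilson interval), and 56 in replicate 2, at 2.52 CPM (1.94 to 3.28). Its exonic bases lie 100% within exons of WDR55 on the opposite strand. WDR55 had 5295 and 4805 reads, of which the reads of DND1 would be 1.64% and 1.17%. The libraries were made with a strand-specific kit, but the strand setting of the counting is not given in the sources used here. Whether reads of WDR55 add to DND1 or are withheld from it was not tested, and the level of DND1 is uncertain.

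TCL1A (ENSG00000100721.11, chromosome 14 from 95709967 to 95714196, minus strand) encodes a small coactivator of AKT kinases, known from lymphoid cells and early embryos. It had 360 reads in replicate 1, or 14.9 CPM, and 364 reads in replicate 2, or 16.4 CPM. The kinases AKT2 and AKT1 were at 66.7 ± 7.30 and 58.3 ± 0.0267 TPM (SD, n = 2 each). The paralogs were read differently by the tables. TCL1B had 41.8 and 40.4 TPM, above TCL1A at 15.4 and 17.4, but only 33 and 19 reads, 24.4 and 37.3 times fewer than its TPM predict. On the same strand, 49.9% of the exonic bases of TCL1B lie in exons of the gene AL133467.3. Whether this overlap has a part in the disagreement was not tested. Because the tables disagree, the order of TCL1A and TCL1B is uncertain. MTCP1, the third of the family, had 2 reads in each library.

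**Figure D2:**
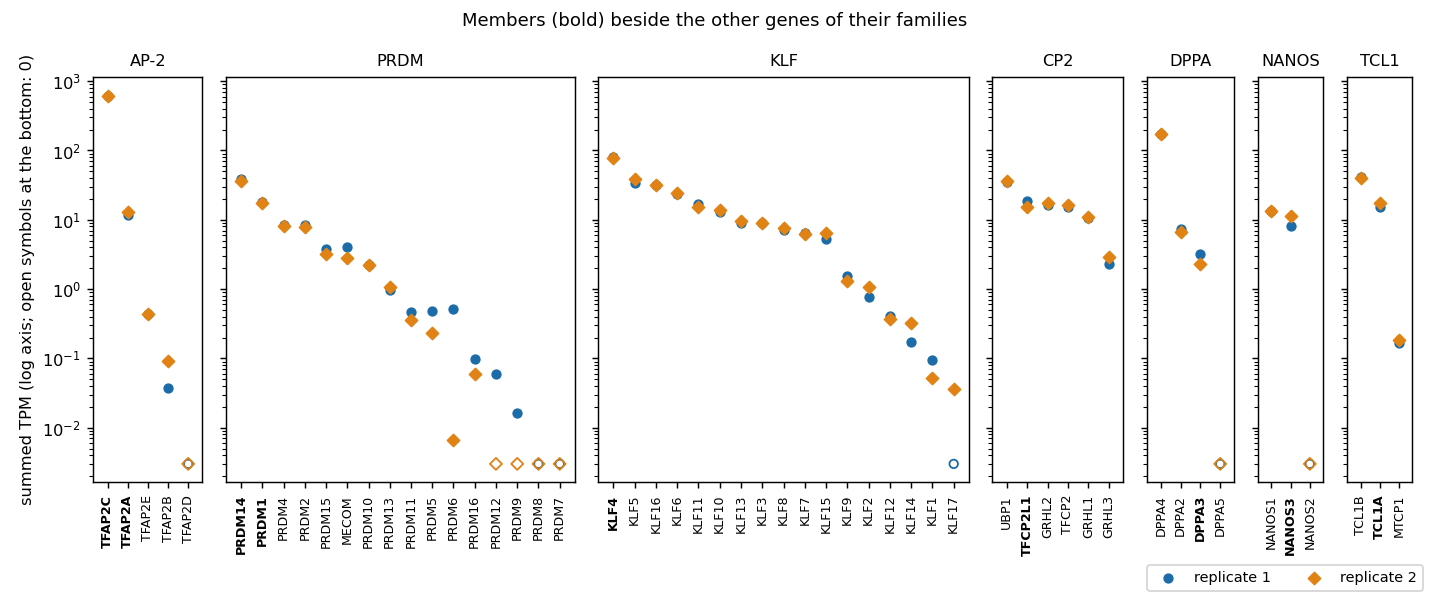
Summed TPM (y axis, log scale) of members (bold) and of the other genes of their families in replicate 1 (circles) and replicate 2 (diamonds). Open symbols at the bottom are genes listed at 0, and the DPPA genes are grouped by their shared name alone. TFAP2C, PRDM14 and KLF4 lead their families, DPPA3 lies below DPPA4 and DPPA2, and TCL1B is drawn by its TPM, which its 33 and 19 reads do not match.

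Reads and TPM were then compared for the members themselves. The log2 ratio of a member's CPM to the CPM predicted from TPM times transcript length ran from -0.52 for DND1 to 0.65 for PRDM1, and 0 of the 10 members were over 4-fold apart, against 7.57% of the same 12984 genes. PRDM1 had 1.57 and 1.46 times, and NANOS3 1.57 and 1.46 times, the predicted reads, while KLF4 had 1.02 and 1.01 times. Transcripts with no entry in the annotation used here, 50288 in all, are not in these sums.

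The partners that induce the germ cell programme were examined with the members. Of 10 inducers and partners 8 were detected, led by POU5F1 at 2130.1 ± 40.1 TPM (SD, n = 2), which has near-identical pseudogenes, so that its level is uncertain. SOX17, which acts with TFAP2C in human germ cell specification, was at 121.7 ± 3.44 TPM, and SOX15 was at 164.1 ± 12.9 TPM (SD, n = 2 each). SOX15 was lower in replicate 2 (log2 difference -0.17, adjusted p of 7.6e-05) and POU5F1 was higher (0.03, adjusted p of 0.018, edgeR exact binomial test for both). TBXT and EOMES, mesoderm factors that act before specification, had 4 reads in each library and 9 and 1 reads. Of 6 genes of later germ cells only TDRD9 was detected, with 500 and 553 reads and higher in replicate 2 (log2 difference 0.27, adjusted p of 0.022, edgeR exact binomial test), and DAZL had no read in either library. Over all 24 genes of the 3 lists, 14 were detected, and over the 64 paralogs and partners described above 46 were. By the same measure 61.8% of protein-coding genes were detected. The counts are not separate, because some KLF genes and DPPA5 are in both. The DPPA genes were placed with the paralogs by name.

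The transcript table shows which forms of the members were present. The leading transcript was the same in both libraries for all 10 members, 8 of which have more than 1 annotated transcript. It differed in 6.90% of the 7040 genes that reached 10 TPM in each library and have more than 1 transcript, of which 7 are members. Depth per transcript is unknown, so shares have no counting interval.

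In PRDM1 the long form led. PRDM1-203, from the upstream start at 106086320, held 89.8% of the TPM in replicate 1 and 76.7% in replicate 2. PRDM1-201, from the internal start at 106098940, held 6.84% and 20.5% (1.25 and 3.57 TPM). Transcripts that start in the window of the internal promoter printed above held 9.47% and 23.3% together. The share of PRDM1-203 fell by 13.0 percentage points between the libraries, and 91.8% of the 7040 genes had a smaller shift of their leading transcript. The median shift was 3.01 points. With 1 library on each side the shift has no replicate check.

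TFAP2A had several forms. TFAP2A-203, which starts at 10415262 outside both RefSeq windows of the gene, held 43.3% and 54.3%. Its rise of 10.9 percentage points was larger than the shift in 88.6% of the 7040 genes. TFAP2A-202, from the start at 10412389, held 20.2% and 18.9%, and TFAP2A-216, annotated as a target of nonsense-mediated decay, held 22.7% and 11.1%. The RefSeq window with the TATA element, upstream of these, held the starts of 2.88% and 3.46% of the TPM.

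KLF4 was divided between a coding and a noncoding form. KLF4-201, the coding transcript, had 42.2 and 41.2 TPM, or 51.6% and 52.4%. KLF4-205, annotated as a retained intron, had 37.9 and 32.2 TPM, or 46.4% and 41.0%. Protein-coding transcripts together held 51.7% and 58.0%, the second value with 4.42 TPM of KLF4-206, which was listed at 0 in replicate 1.

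In TCL1A, TCL1A-201 held 66.6% and 61.1% and TCL1A-203 held 32.9% and 36.2%, from the same start. In NANOS3, NANOS3-201 held 100% and 80.1%, the rest being the noncoding NANOS3-203 at 2.24 TPM in replicate 2, listed at 0 in replicate 1. TFCP2L1, DPPA3 and DND1 each had TPM in 1 transcript alone, and PRDM14-201 held 99.3% and 97.1% of PRDM14.

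**Figure D3:**
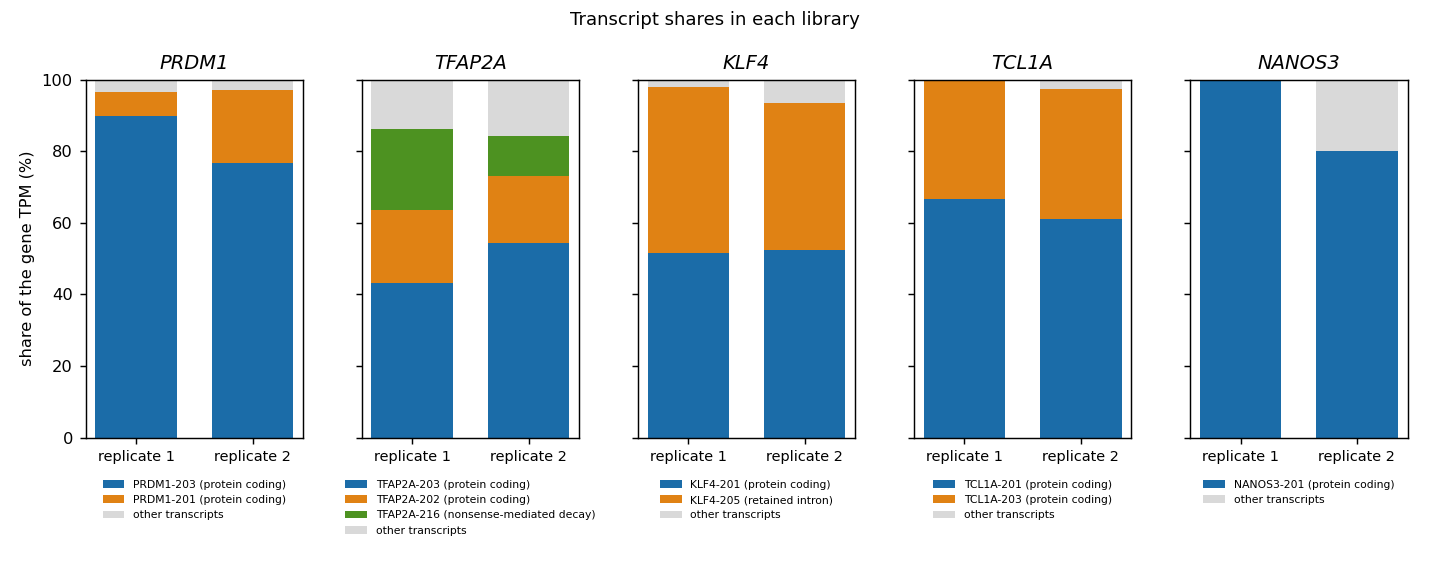
Share of the gene's TPM (y axis, percent) held by each transcript with a mean share of at least 10%, in replicate 1 and replicate 2, with all other transcripts in grey. The bar of PRDM1-203 drops from 89.8% to 76.7%, that of NANOS3-201 from 100% to 80.1% and that of KLF4-205 from 46.4% to 41.0%. That of TFAP2A-203 rises from 43.3% to 54.3%.

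Last, the replicates were compared gene by gene. All 10 members were tested among 15299 genes, and 13.1% of these genes differed by more than counting noise (edgeR exact binomial test, Benjamini-Hochberg adjusted p under 0.05), 6.35% lower and 6.78% higher in replicate 2. Of the members 2 were called, both lower in replicate 2, and 0 were called higher. TFCP2L1 fell by 0.27 on the log2 scale (95% exact binomial interval, -0.35 to -0.20), with an adjusted p of 2.7e-11 (edgeR exact binomial test). PRDM1 fell by 0.18 (95% exact binomial interval, -0.27 to -0.09), with an adjusted p of 0.0012 (edgeR exact binomial test). In TPM summed per gene the fall of PRDM1 was 0.06 at a pseudocount of 1, beside 0.19 in CPM at the same pseudocount.

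TFAP2C, the member with most reads, differed by -0.002 on the log2 scale, and its interval of -0.03 to 0.02 bounds the difference tightly. TFAP2A (0.22, adjusted p of 0.067) and PRDM14 (-0.13, adjusted p of 0.062) came near the threshold without passing it (edgeR exact binomial test for both). PRDM14 passed with DESeq2 size factors (adjusted p of 0.041) or with totals of reads in genes (0.044) in the same exact test. KLF4, TCL1A, NANOS3, DND1 and DPPA3 were not called, and the intervals of the low genes were wide, from -1.18 to 0.19 in DPPA3. Of the 4231 tested genes whose mean reached 50 CPM, 28.8% were called, against the 13.1% of all genes tested. Of the paralogs and partners 49 were tested, with 1 called higher and 3 lower, and of the 14 network genes tested 3 were called higher and 2 lower. Of the embryonal carcinoma markers 4 were tested, with DNMT3B called lower (3003 and 2185 reads) and 0 higher. Of the testis somatic markers 5 were tested, with SOX9 called lower (188 and 104 reads) and 0 higher, while GATA4 and AMH each differed by -0.04 on the log2 scale. Of the 9 seminoma markers 3 were called higher (POU5F1, PDPN and PRAME) and 1 lower (LIN28A), and POU5F1 is also counted among the network genes. Their part in the fall of TFCP2L1 and PRDM1 was not tested. The test compares these 2 libraries, not conditions. When the spread between the libraries themselves (a biological coefficient of variation of 0.0553) was allowed for in edgeR's exact test, 0 members were called. In that test 1 had an unadjusted p under 0.05, and the lowest adjusted p was 0.66, for TFCP2L1. Its spread was estimated from the difference between these same 2 libraries, so that it cannot decide whether a member differs.

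**Figure D4:**
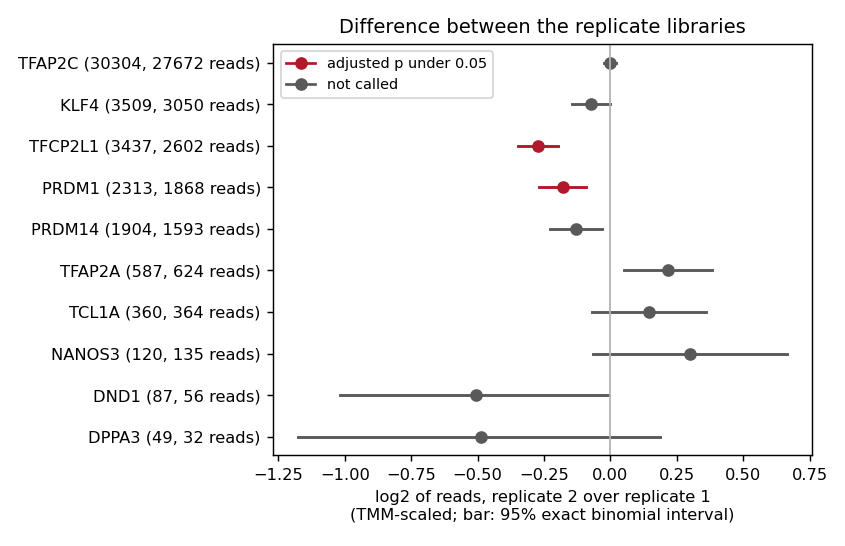
Log2 of reads in replicate 2 over replicate 1 (x axis, TMM-scaled) for each member, in order of mean CPM, with its reads in each library beside its name and bars for the 95% exact binomial interval. TFCP2L1 and PRDM1 (red) are called lower in replicate 2, and TFAP2C sits near 0 with the narrowest bar.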

How the data were processed

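RNA-seq of 2 libraries of 1 group was used. Per the submitters' processing notes Trim Galore 0.6.10, STAR 2.7.11a, Salmon 1.10.2 and DESeq2 were run with GRCh38, in no stated order; the annotation and counter are not given in the sources used here. The authors deposited TPM per Ensembl transcript, and a gene table named CPM, in which the deposited signal equals whole reads over a scaling constant of each library. Neither header names the identifiers, and its names were therefore assigned to the value columns that follow. Reads were recovered by dividing by the smallest value (1.02 and 1.12), and 100% of values above 0 came out whole within 0.001. CPM are relative to all reads in genes. Columns of values left unused numbered 0.

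Transcripts were matched without version to GENCODE 29 on GRCh38, which held 201667 of 251955 transcripts and 94.8% of TPM in each library, and coordinates are from it. Libraries were compared with edgeR 4.0.16 (binomTest, TMM, filterByExpr, Benjamini-Hochberg adjustment over all genes tested), tested on simulated data. Alternatives used DESeq2 1.42.0 size factors, other thresholds, scalings and pseudocounts, TPM, and each library alone. Named genes are the members, DDX53, and in each list the highest and lowest by TPM, those called and those without a read, of which some are not reported here. Other genes named (TFAP2B, PRDM2, PRDM9, KLF6, KLF16, TFCP2, GRHL2, ESRRB, DPPA2, NANOS1, AKT1, TCL1B, CBFA2T3, PRMT5, SOX17, TBXT, GDF3, SOX2, AMH, INSL3, STAR and overlapping neighbours) were chosen after their values were seen. The members and lists were chosen with earlier results of these data known.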

Additional observations from a re-analysis of the deposited data

How the results depend on the processing

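No paired analysis was possible because both libraries belong to 1 group. The count of members beyond counting noise, 2, became 0 in edgeR's exact test with the common dispersion of the libraries, which by construction counts the difference between them as spread. It was 3 with DESeq2 size factors or with totals of reads, where PRDM14 was added, and 2 with all genes with a read. All 10 members also reached 1 TPM in both libraries, and 7 reached 5 CPM, without NANOS3, DND1 and DPPA3. A threshold of 0.1 CPM or either library alone had to give 10. Paralogs and partners detected ranged from 40 to 52, against 46, and germ cell network genes from 12 to 17, against 14. Of 30 levels under another scaling, 29 moved by no more than the SD between libraries. TFAP2C, with an SD of 6.31 CPM, moved from 1251 to 1273 CPM when only reads in nuclear genes were counted. The other members rose too, such as KLF4 from 141.4 to 143.8 CPM, but by no more than their SD. With 2 libraries, leaving out either cannot move a mean past the SD. Of 20 recomputed differences, 19 stayed within the counting interval, and that of PRDM1 in TPM, -0.06, did not. The cause was not tested. Depth limits DPPA3, DND1 and NANOS3, with 32 to 135 reads in a library.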
